A study of Mus musculus with 12 samples.

Results

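Aldehyde dehydrogenases (Aldh genes), aldo-keto reductases (Akr genes) and alcohol dehydrogenases (Adh genes) were described in mpkCCD, an immortalised mouse line with an origin in cortical collecting duct principal cells. The members were all genes whose symbol begins with Aldh, Akr or Adh followed by a digit, apart from Akr1b3, the aldose reductase gene, which served as the reference. This gave 44 of 52015 genes, namely 21 Aldh, 16 Akr and 7 Adh genes, and no expression level was used to choose them. RNA-seq had been done on 12 cultures. Nfat5-KO cells carried a CRISPR/Cas9-mediated deletion of Nfat5, the gene of a transcription factor of the hypertonic response, and came from 2 clones, N1 and N3. Control cells (Scr) had been transduced with a scramble guide RNA that targets no gene. Both were kept for 5 days at 300 mosmol/kg or at 600 mosmol/kg, reached with 100 mM NaCl and 100 mM urea. Scr_300 and Scr_600 had 2 libraries each, and Nfat5-KO_300 and Nfat5-KO_600 had 4 each, 2 from either clone.

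The deposited values give 1 FPKM (fragments scaled by transcript length and by the number of mapped reads) for each gene in each of the 4 groups. No value per library or per clone was used here, so no difference below has a replicate check, an SD or a p-value, and a difference carried by 1 clone cannot be told apart from one shared by both. The read depth is unknown, and FPKM summed to 253756, 231932, 251080 and 212247 in Scr_300, Scr_600, Nfat5-KO_300 and Nfat5-KO_600. Differences were taken as log2 ratios after 0.1 was added to each FPKM, which makes the change of low genes look smaller, for genes with at least 0.5 FPKM in either group compared. A change of at least 2-fold, 1 unit on this scale, was counted. At the main settings, the count of members in each comparison stands beside the share of all genes past the same threshold. Nfat5 mRNA had 5.61, 7.93, 3.47 and 6.88 FPKM in Scr_300, Scr_600, Nfat5-KO_300 and Nfat5-KO_600, so a level over the whole gene did not separate the genotypes at 600 mosmol/kg. Of 11 principal cell markers, 6 reached 0.5 FPKM in a group, namely Krt8, Krt18, Cdh1, Gata3, Hsd11b2 and Scnn1a. Aqp2 (at most 0.245 FPKM), Scnn1b (at most 0.173), Scnn1g (at most 0.0883), Avpr2 (at most 0.0193) and Elf5 (at most 0.0141) did not. None of 4 thick ascending limb and distal tubule markers and none of 5 fibroblast and endothelial markers reached it, and 1 of 5 intercalated cell markers (Atp6v1b1) did.

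The 3 families share a chemistry. Alcohol dehydrogenases interconvert alcohols and aldehydes with NAD, aldo-keto reductases reduce aldehydes and ketones with NADPH, and aldehyde dehydrogenases oxidise aldehydes irreversibly to acids. Together they clear reactive carbonyls that come from lipid peroxidation, amino acid breakdown and xenobiotics, and some make or destroy signalling molecules such as retinoic acid and steroids. Aldose reductase turns glucose into sorbitol, an organic osmolyte that renal medullary cells accumulate in hypertonic surroundings, and its gene is a textbook target of NFAT5, which binds the tonicity-responsive enhancer (TonE). The comparison asked whether the relatives of aldose reductase follow the same pattern over genotype and osmolality.

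Akr1b3 set the pattern. It had 23.8 FPKM in Scr_300, 175 in Scr_600, 14.5 in Nfat5-KO_300 and 39.2 in Nfat5-KO_600. The level rose with osmolality in both genotypes, by 2.87 on the log2 scale in Scr and 1.43 in Nfat5-KO cells, and it was lower in Nfat5-KO cells at both osmolalities (log2 ratios of -0.72 and -2.16). Akr1b3 shared 10.8% of its 100-base transcript windows with other genes. Among these, Gm12138 was listed at 0.775, 5.63, 0.488 and 0.965 FPKM and Gm6736 at 0.864, 4.37, 0.639 and 1.16 FPKM in the same order of groups. Both were highest in Scr_600, as was Akr1b3.

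Of the 44 members, 23 reached 0.5 FPKM in a group, comprising 13 Aldh, 8 Akr and 2 Adh genes, and 20 of these reached it in all 4 groups. The other 21 never exceeded 0.17 FPKM. They were Adh1, Adh4, Adh6a, Adh6b and Adh6-ps1 (a pseudogene listed at 0 in every group), Akr1b7, Akr1c6, Akr1c14, Akr1c18, Akr1c20, Akr1c21, Akr1cl and Akr1d1, and Aldh1a2, Aldh1a3, Aldh1a7, Aldh1b1, Aldh1l1, Aldh1l2, Aldh3b3 and Aldh8a1. These include the classical liver alcohol dehydrogenase Adh1, the bile acid enzyme Akr1d1, both 10-formyltetrahydrofolate dehydrogenases and the retinoic acid-forming Aldh1a2 and Aldh1a3. Summed over the 44 members, FPKM was 262 in Scr_300, 266 in Scr_600, 247 in Nfat5-KO_300 and 231 in Nfat5-KO_600. Akr1a1 alone made up 45.6%, 47.9%, 42.8% and 45.4% of these sums. FPKM is scaled by a length per gene, but the lengths used are not given, so levels of different genes can be compared only roughly.

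**Figure D1:**
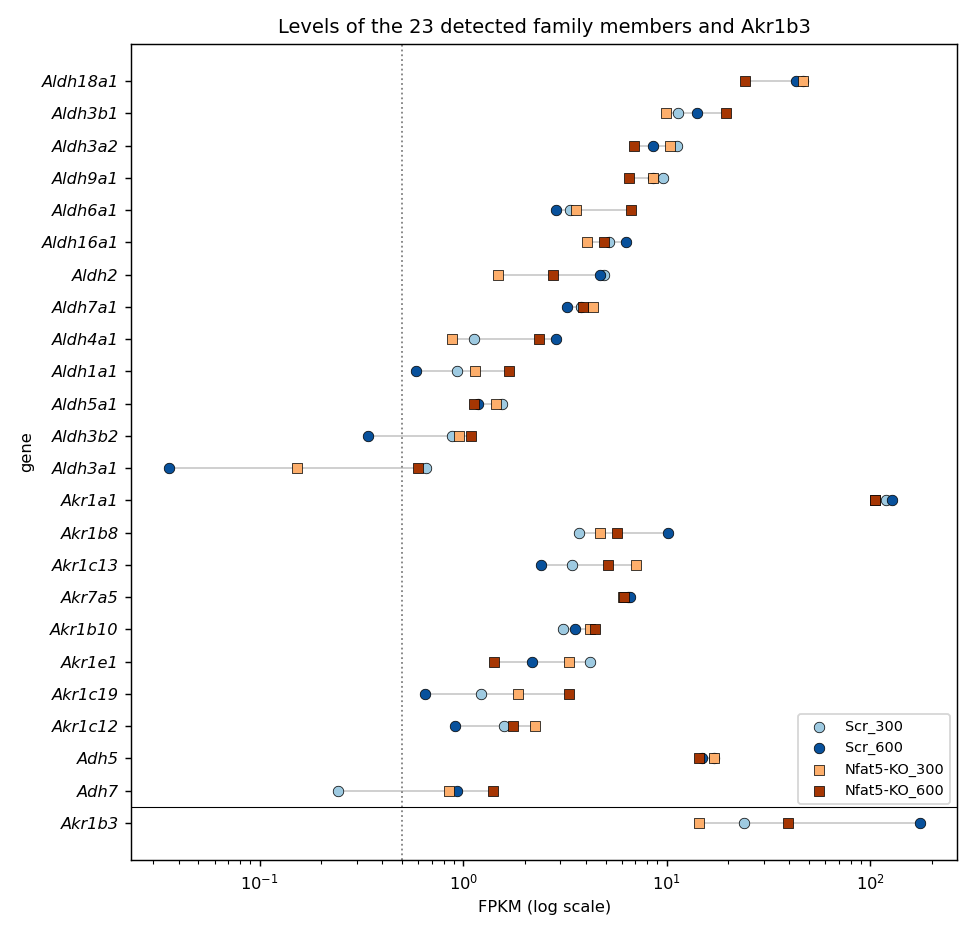
FPKM (log axis) of the 23 members that reached 0.5 FPKM (dotted line) in a group, and of Akr1b3 below the black line. Each symbol is the 1 deposited value of a group (circles Scr, squares Nfat5-KO, dark at 600 mosmol/kg) and no error can be drawn. Akr1a1 is the highest member at 105 to 128 FPKM, and Aldh3a1 spans the widest range, from 0.0359 to 0.660.

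Sequence places 3 members closest to aldose reductase. Akr1b8, Akr1b10 and Akr1b7 lie beside Akr1b3 on chromosome 6 (GRCm38), with coding sequences of 948 bases, the same length as that of Akr1b3. Their coding identity to Akr1b3 was 71.3%, 71.6% and 72.0%. Akr1b10 and Akr1b7 shared 89.2% with each other and 84.8% (Akr1b7) and 84.7% (Akr1b10) with Akr1b8. The next of the 16 Akr members were Akr1e1 at 62.9%, Akr1cl at 57.1% and Akr1a1 at 56.0%, and Akr7a5 was the farthest at 43.3%. Akr1b3 occupies chr6:34302434-34317478 on the minus strand. Akr1b8 (chr6:34354119-34368463) starts 36.6 kb from the start of Akr1b3, Akr1b10 (chr6:34384218-34396950) 66.7 kb and Akr1b7 (chr6:34412334-34423142) 94.9 kb away, all on the plus strand.

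The RefSeq promoters (GRCm38.p6, from 250 bases before to 50 after a start) of Akr1b8 and Akr1b10 are shown because these neighbours split in the data. Whether promoter sequence bears on their levels was not tested. The windows chr6:34353896-34354195 and chr6:34383997-34384296, both on the plus strand, had 46.4% identity. Identity to the Akr1b7 promoter was similar, at 47.1% for Akr1b8 and 44.2% for Akr1b10. Neither holds a match to TonE or to the antioxidant response element core, so no letters are in capitals.
Akr1b8: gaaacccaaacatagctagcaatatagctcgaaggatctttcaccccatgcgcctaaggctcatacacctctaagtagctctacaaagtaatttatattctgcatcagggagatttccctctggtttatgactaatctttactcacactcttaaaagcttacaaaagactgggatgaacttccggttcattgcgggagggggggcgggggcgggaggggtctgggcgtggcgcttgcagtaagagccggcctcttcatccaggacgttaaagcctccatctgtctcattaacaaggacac
Akr1b10: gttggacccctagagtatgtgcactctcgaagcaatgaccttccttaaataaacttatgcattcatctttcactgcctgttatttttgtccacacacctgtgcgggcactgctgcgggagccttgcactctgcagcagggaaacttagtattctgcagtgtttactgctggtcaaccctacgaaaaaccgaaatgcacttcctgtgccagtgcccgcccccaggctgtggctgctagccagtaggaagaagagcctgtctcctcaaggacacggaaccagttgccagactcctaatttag
No entry for the Akr1b3 promoter was in the table used.

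Akr1b8, first described as a growth factor-induced reductase of aromatic and aliphatic aldehydes, had 3.69 FPKM in Scr_300, 10.2 in Scr_600, 4.68 in Nfat5-KO_300 and 5.66 in Nfat5-KO_600. The value of Scr_600 stands above the other three groups. Its log2 ratio between osmolalities was 1.44 in Scr and 0.27 in Nfat5-KO cells, a difference of -1.17, and between genotypes it was -0.83 at 600 mosmol/kg and 0.33 at 300 mosmol/kg. Akr1b3 had a difference of the same sign (-1.44), but its level in Nfat5-KO_300 lay below that of Scr_300, whereas that of Akr1b8 did not.

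Akr1b10 had 3.10, 3.53, 4.18 and 4.42 FPKM in Scr_300, Scr_600, Nfat5-KO_300 and Nfat5-KO_600. Its 4 values lie close together, and its log2 ratios between osmolalities were 0.18 in Scr and 0.08 in Nfat5-KO cells. Nfat5-KO cells had the higher value at both osmolalities, with log2 ratios of 0.42 and 0.32. Akr1b7, known as a vas deferens and adrenal protein, was under the 0.5 FPKM minimum in every group. None of the windows of 100 bases from the transcripts of Akr1b8 and Akr1b10 occurred in another gene.

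**Figure D2:**
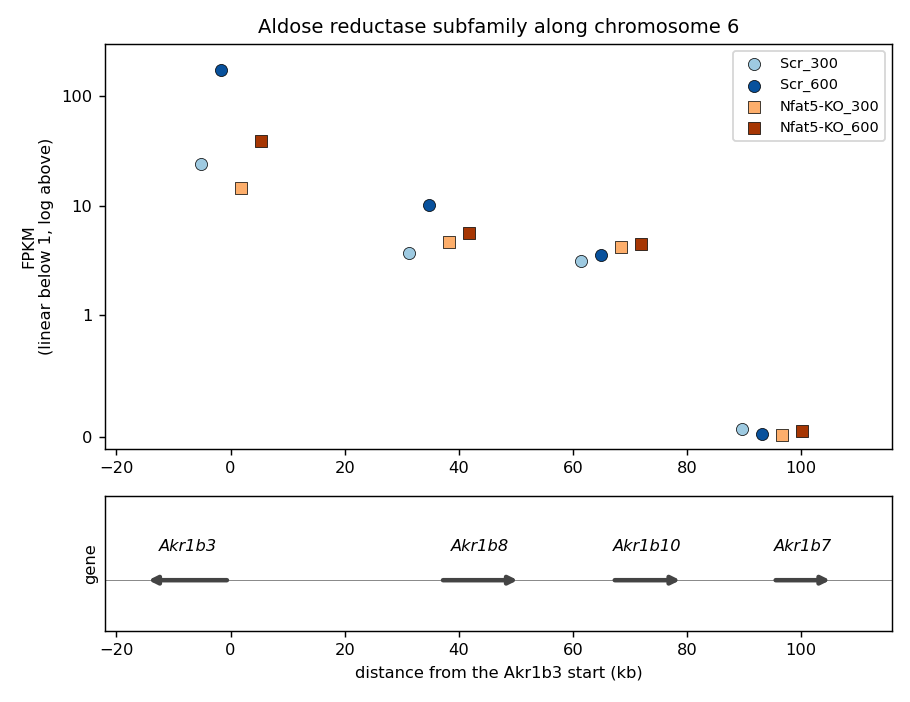
FPKM (linear below 1, log above) of Akr1b3 and its 3 nearest relatives, placed by the distance of each gene's start from the Akr1b3 start in kb. The 4 symbols of a gene are the 4 groups, set side by side, and arrows below run from the start to the end of each gene. Akr1b3 and Akr1b8 have their highest value in Scr_600 (175 and 10.2 FPKM), Akr1b10 stays between 3.10 and 4.42, and Akr1b7 is near 0.

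The likeness of each profile to that of Akr1b3 was measured as the root mean square difference of log2(FPKM + 0.1) over the 4 groups, each profile centred on its own mean, where 0 is the same shape. Over 13413 genes the median was 1.38, and over the 23 members it was 1.44, with a range of 0.80 to 2.10. A profile that does not vary at all would have 1.34, and 8 of the 23 members lay nearer to Akr1b3 than that, as did 41.7% of all genes. Aldh4a1 was the nearest member at 0.80, with 1.98% of all genes nearer, and Akr1b8 followed at 0.88, with 2.89% nearer. Akr1b10 was at 1.40, with 55.3% of genes nearer, so the 2 detected members with the closest coding sequence held very different places. The 5 genes with the smallest distance were Il17rb (0.13), Rtp4 (0.15), 1700016C15Rik (0.19), Ifit3 (0.20) and Foxq1 (0.21), and none belongs to these families. These distances rest on 4 group values each and are a description.

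**Figure D3:**
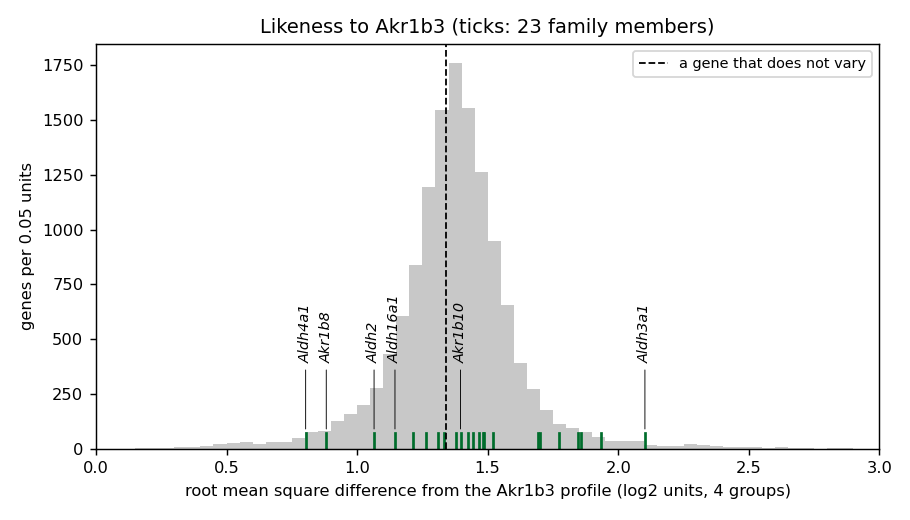
Histogram of the root mean square difference from the Akr1b3 profile for 13413 genes (3 lie beyond the axis), with green ticks for the 23 members and a dashed line for a gene that does not vary (1.34). Aldh4a1 (0.80) and Akr1b8 (0.88) lie in the left tail, Akr1b10 (1.40) lies near the peak, and Aldh3a1 (2.10) is the farthest member.

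In Scr cells, 3 of the 23 members were at least 2-fold higher at 600 than at 300 mosmol/kg (13.0%, against 4.81% of all genes), namely Adh7, Akr1b8 and Aldh4a1. Aldh3a1 and Aldh3b2 were at least 2-fold lower (8.7%, against 2.86% of all genes). The median log2 ratio was -0.20 over members and -0.04 over all genes. In Nfat5-KO cells, Aldh3a1 and Aldh4a1 were at least 2-fold higher at 600 mosmol/kg (8.7%, against 6.25%) and Akr1e1 was at least 2-fold lower (4.35%, against 4.11%), with medians of 0.08 and -0.04. This last split depends on how the columns are scaled. With each column scaled to the same sum, which moves all log2 ratios of that comparison by 0.24, 6 members were higher (10.1% of all genes were) and 0 lower (2.09% of all genes). The same scaling moves the hypertonic ratios of Scr cells, and the genotype ratios at 600 mosmol/kg, by 0.13 each.

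Between genotypes at 300 mosmol/kg, Adh7 and Akr1c13 were at least 2-fold higher in Nfat5-KO cells (8.7%, against 1.73% of all genes) and Aldh2 and Aldh3a1 at least 2-fold lower (8.7%, against 2.44%). Both medians were 0.00. At 600 mosmol/kg, 6 members were at least 2-fold higher in Nfat5-KO cells (26.1%, against 3.76%), in order Aldh3a1, Akr1c19, Aldh3b2, Aldh1a1, Aldh6a1 and Akr1c13, and 0 were at least 2-fold lower (3.68% of all genes were). Akr1b3 was lower in Nfat5-KO cells there (-2.16), so any member counted as higher differs from it in direction by selection. Members lay on both sides all the same, with 11 above and 12 below 0, and their median was -0.05 beside -0.02 for all genes. The log2 ratios spread more widely over members (SD across genes 0.93) than over all genes (0.60). Aldh3a1, Akr1c19, Aldh3b2 and Aldh1a1 were at or under 3.31 FPKM in every group, and with a pseudocount of 1 only Akr1c19 of the 6 stayed past 2-fold (1.39).

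The hypertonic responses of the genotypes were then set against each other. In 5 members the log2 ratio was at least 1 unit more positive in Nfat5-KO than in Scr cells (21.7%, against 3.88% of all genes), namely Aldh3a1, Akr1c19, Aldh3b2, Aldh1a1 and Aldh6a1. Akr1b8 alone was at least 1 unit more negative (4.35%, against 3.16%). With a pseudocount of 1, the members more positive in Nfat5-KO cells fell from 5 to 2, Aldh3a1 (1.15) and Akr1c19 (1.03). These contrasts use the same 4 values per gene as the comparisons above and are no separate evidence. Of the 23 members, 12 passed 2-fold in none of the 4 comparisons, and 9 of them (Adh5, Akr1a1, Akr1b10, Akr7a5, Aldh16a1, Aldh3a2, Aldh5a1, Aldh7a1 and Aldh9a1) stayed under 1.5-fold in each. The matching shares of all genes were not calculated, so these counts do not say whether members vary less than other genes.

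**Figure D4:**
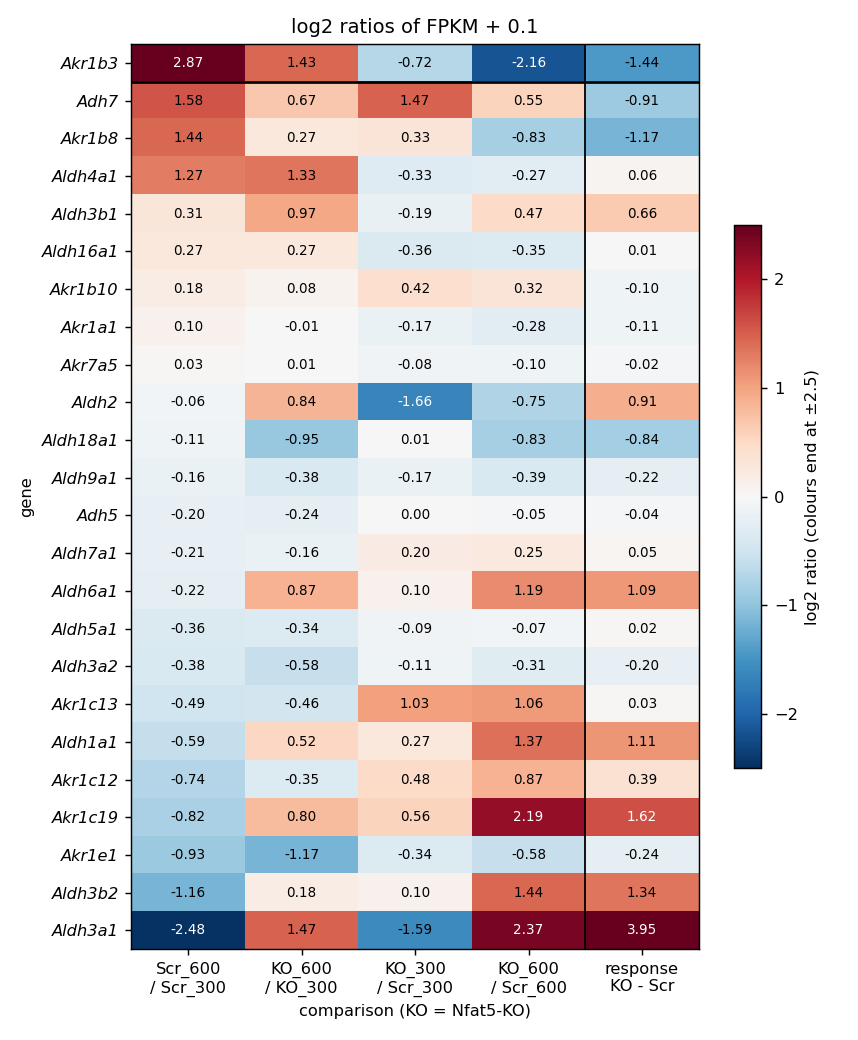
log2 ratios of FPKM + 0.1 for Akr1b3 (top row) and the 23 members, ordered by the ratio of Scr_600 to Scr_300, in the 4 comparisons and, in the last column, the hypertonic ratio of Nfat5-KO minus that of Scr cells. Colours run from blue (lower) to red (higher) and end at 2.5 units on either side. Akr1b3 is negative in the KO_600 / Scr_600 column (-2.16), where 6 members reach 1 or more, up to 2.37 in Aldh3a1.

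The hydroxysteroid and dihydrodiol reductases of the Akr1c group reduce ketosteroids, prostaglandins and aromatic ketones, and 3 of the 9 were detected. Akr1c12, Akr1c13 and Akr1c19 are neighbours on chromosome 13, and each had its lowest value in Scr_600. Akr1c13 had 3.42 FPKM in Scr_300, 2.40 in Scr_600, 7.10 in Nfat5-KO_300 and 5.12 in Nfat5-KO_600. Both Nfat5-KO values lie above both Scr values, with log2 ratios between genotypes of 1.03 and 1.06, and the osmolality ratios were alike in the genotypes (-0.49 in Scr and -0.46 in Nfat5-KO cells).

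Akr1c12 had 1.59, 0.911, 2.26 and 1.75 FPKM in Scr_300, Scr_600, Nfat5-KO_300 and Nfat5-KO_600. Again the Nfat5-KO values were the higher ones, by log2 ratios of 0.48 and 0.87, and both genotypes were lower at 600 mosmol/kg (-0.74 and -0.35). Akr1c12 and Akr1c13 are 96.2% identical in their coding sequence, and 11.5% and 9.36% of their 100-base windows occur in the other, so reads can be split between them. Akr1c19 differed from the pair in its osmolality response, with 1.22 FPKM in Scr_300, 0.649 in Scr_600, 1.86 in Nfat5-KO_300 and 3.31 in Nfat5-KO_600. Its log2 ratio between osmolalities was -0.82 in Scr and 0.80 in Nfat5-KO cells, and between genotypes 0.56 at 300 and 2.19 at 600 mosmol/kg. Summed over the 9 Akr1c genes, FPKM was 6.29, 4.06, 11.4 and 10.3.

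The promoters of Akr1c12 (chr13:4279350-4279649, minus strand) and Akr1c13 (chr13:4190937-4191236, plus strand), whose levels were higher in Nfat5-KO cells at both osmolalities, had 93.4% identity over the RefSeq windows, against 55.7% between Akr1c13 and Akr1c19. Each holds a match to the core of the antioxidant response element, the site of the oxidative stress factor NRF2, on the plus strand 96 bases (Akr1c12) and 99 bases (Akr1c13) before the start, and this match is in capitals. The Akr1c19 window also holds a match, on the minus strand after the start. Akr1c19 levels, too, were higher in Nfat5-KO cells at both osmolalities (log2 ratios of 0.56 and 2.19). A higher level in Nfat5-KO cells was thus seen in every detected Akr1c gene. Whether promoter sequence bears on these levels was not tested.
Akr1c12: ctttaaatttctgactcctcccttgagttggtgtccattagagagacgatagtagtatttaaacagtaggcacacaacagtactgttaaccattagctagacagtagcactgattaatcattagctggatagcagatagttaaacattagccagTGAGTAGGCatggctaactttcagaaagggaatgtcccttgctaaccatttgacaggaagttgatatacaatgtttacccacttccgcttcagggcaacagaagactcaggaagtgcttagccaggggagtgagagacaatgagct
Akr1c13: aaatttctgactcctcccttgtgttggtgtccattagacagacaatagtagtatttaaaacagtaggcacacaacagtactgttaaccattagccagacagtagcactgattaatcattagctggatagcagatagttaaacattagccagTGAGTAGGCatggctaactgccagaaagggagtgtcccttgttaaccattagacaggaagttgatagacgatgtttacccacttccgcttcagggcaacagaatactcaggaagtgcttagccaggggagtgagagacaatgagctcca

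Both motifs were searched on both strands in all promoters of the table, and their letters share no core, so that a match to one is not a match to the other. The antioxidant response element was searched as TGACNNNGC or TGAGNNNGC, and TonE by its consensus. Promoters were present for 35 of the 44 members (38 windows, since some genes have several starts), and none for Adh6-ps1, Adh6b, Akr1c20, Aldh1a3, Aldh1l2, Aldh2, Aldh3a1, Aldh3b2 and Aldh7a1. The antioxidant core was in 14 of 38 windows (36.8%), against 27.8% of 32851 promoters in all. TonE was in 1 (2.63%), that of Aldh5a1, against 4.96% of all. A match is a run of letters, not a shown site, and windows without one say nothing of binding elsewhere.

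Of the remaining aldo-keto reductases, Akr1a1 and Akr7a5 stayed under 1.5-fold in every comparison and Akr1e1 did not. Akr1a1, the general aldehyde reductase that also makes the ascorbate precursor in mice, had 119 FPKM in Scr_300, 128 in Scr_600, 106 in Nfat5-KO_300 and 105 in Nfat5-KO_600. In Scr_300 and in both Nfat5-KO groups its FPKM exceeded that of Akr1b3, and only in Scr_600 was Akr1b3 the higher of the pair. This order depends on the gene lengths used for FPKM, which are not given. In the gene models used here, exons covered 8384 bases in Akr1b3 and 2750 in Akr1a1. Akr7a5, an aflatoxin aldehyde reductase, lay between 6.11 and 6.61 FPKM in the 4 groups. Akr1e1, a reductase of anhydrofructose, lies beside the Akr1c genes and had 4.21, 2.17, 3.31 and 1.42 FPKM in Scr_300, Scr_600, Nfat5-KO_300 and Nfat5-KO_600. Its level was lower at 600 mosmol/kg in both genotypes (log2 ratios of -0.93 in Scr and -1.17 in Nfat5-KO cells), which is opposite in direction to Akr1b3.

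Class 3 aldehyde dehydrogenases oxidise fatty and aromatic aldehydes. Aldh3a1, an abundant enzyme of the cornea, was low here, with 0.660 FPKM in Scr_300, 0.0359 in Scr_600, 0.153 in Nfat5-KO_300 and 0.600 in Nfat5-KO_600. The order of the osmolalities was turned between the genotypes, with log2 ratios of -2.48 in Scr and 1.47 in Nfat5-KO cells. All 4 values are near or under the 0.5 FPKM minimum, and with a minimum of 1 FPKM the gene leaves every count. Aldh3b2 had 0.877, 0.339, 0.950 and 1.09 FPKM, so that Scr_600 stood below the other three groups (log2 ratio to Scr_300 of -1.16). It shares 89.7% of its coding sequence with Aldh3b3, and 14.0% of its windows occur in that gene.

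Aldh3b1, a lipid aldehyde dehydrogenase of membranes, had 11.3 FPKM in Scr_300, 14.0 in Scr_600, 9.91 in Nfat5-KO_300 and 19.5 in Nfat5-KO_600. Its log2 ratio of 600 to 300 mosmol/kg was 0.31 in Scr and 0.97 in Nfat5-KO cells, the latter just under 2-fold. Aldh3a2, the fatty aldehyde dehydrogenase lost in Sjögren-Larsson syndrome, had 11.2, 8.57, 10.4 and 6.91 FPKM, with the lower value at 600 mosmol/kg in either genotype (-0.38 and -0.58).

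Aldh1a1, which oxidises retinal to retinoic acid, was the one class 1 enzyme of 5 that was detected. It had 0.934 FPKM in Scr_300, 0.589 in Scr_600, 1.14 in Nfat5-KO_300 and 1.68 in Nfat5-KO_600. The genotype ratio was 0.27 at 300 and 1.37 at 600 mosmol/kg. Aldh1a7, 91.6% identical in coding sequence, was under the minimum, and 0.0203% of the windows of Aldh1a1 occurred in it. Aldh2, the mitochondrial enzyme that clears acetaldehyde, had 4.92 FPKM in Scr_300, 4.70 in Scr_600, 1.49 in Nfat5-KO_300 and 2.75 in Nfat5-KO_600. Both Nfat5-KO values lie below both Scr values, with log2 ratios of -1.66 and -0.75. In Scr cells the osmolality ratio was -0.06, and in Nfat5-KO cells 0.84. Aldh2 thus shared with Akr1b3 a lower level in Nfat5-KO cells at both osmolalities, but not the rise with osmolality in Scr cells.

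The enzymes of amino acid metabolism were all detected, 6 of 6. Aldh18a1 makes the semialdehyde from which proline is formed, and Aldh4a1 oxidises the same semialdehyde to glutamate. Aldh18a1 had 46.5 FPKM in Scr_300, 43.1 in Scr_600, 46.9 in Nfat5-KO_300 and 24.2 in Nfat5-KO_600. The value of Nfat5-KO_600 lies below the other three, which are close together, with a log2 ratio of -0.95 to Nfat5-KO_300 and -0.83 to Scr_600. Aldh4a1 differed with osmolality and little between genotypes (log2 ratios of -0.33 and -0.27), with 1.13, 2.87, 0.878 and 2.37 FPKM and log2 ratios between osmolalities of 1.27 in Scr and 1.33 in Nfat5-KO cells. Of its exonic bases, 32.5% overlap Gm21969 on the same strand, a gene listed at 0.0112 FPKM at most.

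Aldh6a1, which acts in valine and pyrimidine breakdown, had 3.35 FPKM in Scr_300, 2.87 in Scr_600, 3.60 in Nfat5-KO_300 and 6.67 in Nfat5-KO_600. The value of Nfat5-KO_600 stands above the others, by a log2 ratio of 1.19 to Scr_600 and 0.87 to Nfat5-KO_300. Its exons overlap those of Bbof1 on the opposite strand over 18.6% of their bases, and Bbof1 was listed at 2.03, 1.86, 2.10 and 5.01 FPKM in the same order of groups. Whether the reads were counted by strand is not given in the sources used here, so reads of the pair cannot be told apart.

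Aldh7a1 oxidises an aldehyde of lysine breakdown and also makes the osmolyte betaine from betaine aldehyde. It had 3.77, 3.25, 4.36 and 3.88 FPKM in Scr_300, Scr_600, Nfat5-KO_300 and Nfat5-KO_600, with osmolality ratios of -0.21 and -0.16. The listed level of this second osmolyte-linked enzyme therefore had no rise at 600 mosmol/kg in either genotype. Of its exonic bases, 9.19% overlap Phax or AC162035.3 on the opposite strand. Phax was listed at 17.2, 16.1, 18.3 and 16.0 FPKM in the same order of groups, and without counting by strand its reads could enter the Aldh7a1 value. Aldh9a1, which serves carnitine synthesis, had 9.61, 8.60, 8.54 and 6.52 FPKM. Aldh5a1, the succinate semialdehyde dehydrogenase of GABA breakdown, had 1.55, 1.19, 1.45 and 1.12 FPKM, and was lower at 600 mosmol/kg by about the same log2 ratio in both genotypes (-0.36 and -0.34). Its promoter held the TonE match, on the minus strand 144 bases before the start, read along the gene as GAGTCTTTCCA. Aldh16a1, a divergent member of little known function, had 5.22, 6.30, 4.06 and 4.92 FPKM and an osmolality ratio of 0.27 in either genotype.

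Of the alcohol dehydrogenases, Adh5 and Adh7 were detected. Adh5, which removes formaldehyde and S-nitrosoglutathione and is active in most cells, had 17.1, 14.9, 17.0 and 14.4 FPKM in Scr_300, Scr_600, Nfat5-KO_300 and Nfat5-KO_600. The genotype ratios were 0.00 and -0.05, and those of osmolality -0.20 and -0.24. Adh7, an epithelial enzyme for retinol and ethanol, had 0.242, 0.926, 0.847 and 1.41 FPKM, lowest in Scr_300. Its log2 ratio was 1.58 between osmolalities in Scr and 0.67 in Nfat5-KO cells, and 1.47 between genotypes at 300 mosmol/kg. Of the members, Adh7 had the largest rise with osmolality in Scr cells, but at levels under 1 FPKM in those cells, and its genotype ratio was opposite in sign to that of Akr1b3.

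**Figure D5:**
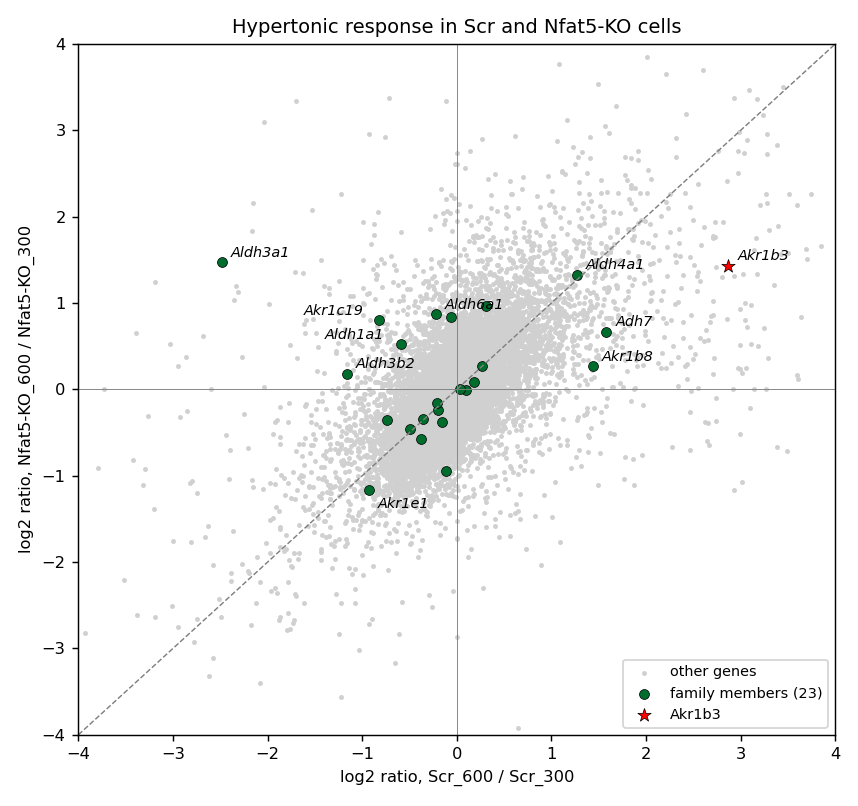
log2 ratio of 600 to 300 mosmol/kg in Nfat5-KO cells (vertical) against that in Scr cells (horizontal) for 13414 genes in grey (16 outside the axes), the 23 members in green and Akr1b3 as a red star. Points on the dashed line have the same ratio in both. Akr1b3 and Akr1b8 lie below the line on the right, Aldh4a1 lies on it, and Aldh3a1 and Akr1c19 lie in the upper left field, where the directions are opposite.

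Of 6 proximal tubule markers, Lrp2 alone reached 0.5 FPKM, at 1.07 FPKM in Nfat5-KO_600 and 0.0116 in Scr_600, and the sum of the 6, most of it Lrp2 in Nfat5-KO_600, was 0.0642, 0.0518, 0.370 and 1.24 FPKM in Scr_300, Scr_600, Nfat5-KO_300 and Nfat5-KO_600. Cubn, under the minimum, was also higher in Nfat5-KO cells, with 0.0443, 0.0353, 0.194 and 0.156 FPKM in the same order of groups. Slc34a1, Slc22a6 and Slc22a8, which define that segment, were at or near 0 in every group, and Slc5a2 had at most 0.0156 FPKM. The detected intercalated cell marker, Atp6v1b1, went the other way, with 0.542 FPKM in Scr_600 and 0.149 in Nfat5-KO_600 (log2 ratio of -1.37). The sum of the 5 intercalated cell markers did not, with 0.773 FPKM in Scr_600 and 0.915 in Nfat5-KO_600. Slc4a1, under the minimum, had 0.0259 and 0.417 FPKM in these groups. Of the 6 principal cell markers detected, Gata3, Hsd11b2 and Scnn1a were also at least 2-fold higher in Nfat5-KO_600 than in Scr_600. The part of these markers in the higher Aldh1a1, Aldh6a1 and Akr1c19 values of Nfat5-KO_600 was not tested. In bulk samples, more cells of a type and more RNA per cell cannot be told apart.

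Genes of the pathways around the members were counted from lists, to be read against the shares of all genes, which were 4.81% higher and 2.86% lower at 600 mosmol/kg in Scr cells, and, for Nfat5-KO_600 against Scr_600, 3.76% higher and 3.68% lower. Of 6 polyol pathway genes detected, Sord, the sorbitol dehydrogenase that follows aldose reductase, had 1.39, 0.485, 0.670 and 1.56 FPKM, so its level was lowest where Akr1b3 was highest (log2 ratio of -1.35 in Scr and 1.11 in Nfat5-KO cells). Khk, the fructose kinase, had 2.19, 2.17, 1.54 and 3.83 FPKM. Of 7 organic osmolyte genes, Akr1b3 included, 4 were at least 2-fold higher at 600 mosmol/kg in Scr cells, and 3 were at most 0.5 times their Scr_600 level in Nfat5-KO_600. The betaine transporter gene Slc6a12 had 0.00512, 2.10, 0 and 0.135 FPKM, highest in Scr_600 as for Akr1b3.

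Of 13 NRF2 target genes detected, 2 were at least 2-fold higher and 1 lower at 600 mosmol/kg in Scr cells, and 4 were higher and 1 lower in Nfat5-KO_600 than in Scr_600. The quinone reductase gene Nqo1, the 1 that was lower in Nfat5-KO_600, had 7.84, 41.5, 11.8 and 20.4 FPKM, with its highest value in Scr_600 as for Akr1b8. Hmox1 (27.1, 25.5, 44.4 and 73.9 FPKM) and Gstm1 (91.3, 172, 94.3 and 355 FPKM) had their highest value in Nfat5-KO_600 instead. Gsta4 had 9.48, 3.90, 7.67 and 14.2 FPKM, lowest in Scr_600 and highest in Nfat5-KO_600 as for Akr1c19. A further list held genes around carbonyl reduction without an Aldh, Akr or Adh symbol, and 14 of them were detected. Whether any of these belongs to the 3 families by sequence was not tested. Relative to Scr_600, the Nfat5-KO_600 value was at least 2-fold higher for 2 (Cbr3 and Kcnab2) and lower for 1 (Cbr2). Scr cells reached 0.5 FPKM for 12 of the 14, with 0 at least 2-fold higher and 1 (Dhrs7) lower at 600 mosmol/kg. Cbr3 had the widest change, with 0.223, 0.198, 1.16 and 3.05 FPKM and genotype ratios of 1.96 and 3.40. Among 6 genes of proline and glutamate semialdehyde metabolism, Pycr1, which completes proline synthesis after Aldh18a1, had 7.21, 3.99, 4.10 and 1.49 FPKM, and Prodh had 1.95, 1.58, 2.18 and 0.839. Like Aldh18a1, both had their lowest value in Nfat5-KO_600, where 0 of the 6 genes were at least 2-fold above Scr_600 and 1 was at least 2-fold below. Of 10 retinoic acid pathway genes, 1 was at least 2-fold higher and 0 lower in the same comparison. Rxra had 5.73, 6.35, 9.94 and 17.1 FPKM and Dhrs3 had 5.61, 12.5, 2.17 and 12.7. Among 8 genes of branched chain and lysine breakdown, Bckdhb alone passed 2-fold in any of the 4 comparisons, being lower at 600 mosmol/kg in both genotypes (-1.61 and -1.40).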

How the data were processed

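RNA-seq was done on poly-A-selected RNA of 12 cultures in 4 groups. The authors discarded read pairs that held adapters, undetermined bases or poor quality scores, mapped the rest to GRCm38 (mm10) with HISAT2, counted them per gene with HTSeq, and deposited FPKM values, 1 per gene and group. The way libraries were combined into a group value, the tool versions and the annotation release are not given in the sources used here.

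Of 54839 rows, 2436 had no value, 311 were exact duplicates, and 37 symbols with several rows (no member among them) were left out. Ratios were taken as log2 of FPKM + 0.1 at a minimum of 0.5 FPKM in either group. The planned test over libraries (limma) needs values per library and was not possible, so no p-value was calculated. The steps were tested on simulated data. Alternatives were pseudocounts of 1 and 0.01, no minimum or 1 FPKM, 2 scalings and a 1.5-fold threshold.

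Members, gene lists and marker lists were chosen with earlier results of these data known. All members with at least 0.5 FPKM are named, and of each pathway list at most 4 genes past 2-fold. Gene models came from GENCODE M21, coding identity from global alignment with Biopython 1.88, and shared sequence from windows of 100 bases, without the authors' reads. Python 3.11.15, numpy 2.4.6, pandas 2.3.3 and matplotlib 3.10.9 were used.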

Additional observations from a re-analysis of the deposited data

Results flagged for a closer look

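In Aldh3a1 and Akr1c19 the genotypes moved in opposite directions with osmolality, each by at least 1.5-fold. Aldh3a1 had a log2 ratio of 600 to 300 mosmol/kg of -2.48 in Scr and 1.47 in Nfat5-KO cells, a difference of 3.95. Akr1c19 had -0.82 and 0.80, a difference of 1.62. Neither difference was tested, since each group has 1 value. Aldh3a1 was at 0.660 FPKM or less in every group.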

How the results depend on the processing

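No paired analysis was possible because the table holds 1 value per group, and for the same reason the fits that leave out 1 library were not run. Counts of members past 2-fold moved most with the pseudocount. With a pseudocount of 1, members higher and lower numbered 0 and 1 in Nfat5-KO_300 against Scr_300, 1 higher in Nfat5-KO_600 against Scr_600, 1 and 0 in Scr_600 against Scr_300, and 0 and 0 in Nfat5-KO_600 against Nfat5-KO_300. Members with a response at least 1 unit more positive in Nfat5-KO cells numbered 2 with a pseudocount of 1, and those at least 1 unit more negative 2 with a pseudocount of 0.01. With a minimum of 1 FPKM they were 1 and 1 in Nfat5-KO_300 against Scr_300, 0 lower in Scr_600 against Scr_300 and 1 higher in Nfat5-KO_600 against Nfat5-KO_300. With columns scaled to the same sum they were 6 and 0 in Nfat5-KO_600 against Nfat5-KO_300. At 1.5-fold, 3 members were lower in Nfat5-KO_600 against Scr_600, 6 lower in Scr_600 against Scr_300, and 7 higher and 2 lower in Nfat5-KO_600 against Nfat5-KO_300. The counts under the other alternatives were within 1.5 times. Shares of all genes were calculated only at the main settings and for the same-sum scaling of Nfat5-KO_600 against Nfat5-KO_300. The other counts given here therefore do not say whether members differ from other genes. Of 720 recomputed values of single genes (Akr1b3 included), 0 past 2-fold changed sign, 19 fell under 2-fold (18 with a pseudocount of 1) and 7 newly passed it. The likeness of Akr1b8 to Akr1b3 stayed between 0.88 and 0.90, and that of Akr1b10 between 1.36 and 1.40. The read depth is unknown, so what it limits cannot be given, and low genes such as Aldh3a1, Adh7 and Aldh3b2 carry the least certain ratios.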
